A study of Mus musculus with 10 samples.

Results

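The Rab genes encode the largest branch of the Ras-like small GTPases, and they are described here in microglia, the resident macrophages of the brain, that lack the transcription factors Bhlhe40 and Bhlhe41. Members were chosen on symbol and level: protein-coding genes named Rab with a number, and at most a letter and a further digit, that had a mean of at least 10 estimated reads over all libraries. This took 43 of the 59 protein-coding genes with such a symbol, of 53697 genes in the files. Because the level chose the members, their levels are a description. Rab7b lay just inside the limit with a mean of 10.4 estimated reads, and Rab3c lay just outside it with 9.15. The other 15 genes left out had means of 0 to 7.69 reads, among them Rab17, Rab38, Rab39b and Rab25. Rab30 (4.61 reads in DKO and 10.8 in WT libraries) and Rab36 (4.00 and 10.6) were left out through their low DKO reads. The limit thus kept a gene that was higher in DKO and left out genes that were lower, which bears on the counts of both directions.

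RNA was sequenced in 5 libraries from female Bhlhe40-/-Bhlhe41-/- mice (double knockout, DKO) and 5 libraries from female wildtype (WT) mice of the C57BL/6J or Rosa26Stop-YFP strains, all untreated. Minimum ages of 2 and 6 months are stated for the mice, and neither the ages nor the WT strains are assigned to libraries. Cells from brain without olfactory bulb and cerebellum were sorted as viable CD45.2+CD11b+ cells without Ly6C, Ly6G, MHCII or CD38, and libraries are named DKO 1 to DKO 5 and WT 1 to WT 5 after the replicate numbers of their labels. The labels call them biological replicates and do not state whether each came from 1 animal, so the tests weigh differences only against the spread among these libraries.

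Libraries held 22483284 to 26109349 estimated reads in DKO and 23382114 to 25871082 in WT, and the 43 Rab genes together took 0.349% to 0.403% of them. The 12 microglia markers summed to 79305 to 95581 CPM (the usual depth-scaled read count, here with TMM factors) in DKO and 84399 to 93186 CPM in WT libraries, and 1 of them was lower in DKO. Markers of border-associated macrophages summed to 6.78 to 26.8 CPM in DKO and 4.58 to 15.5 CPM in WT libraries (1 of 3 tested higher in DKO, Cd163 and Lyve1 at 0). Neuron, astrocyte, endothelial, monocyte, neutrophil and T or NK cell markers summed to at most 13.4 CPM in any library, and oligodendrocyte markers to 198 to 213 CPM in DKO and 197 to 230 CPM in WT libraries (1 of 6 lower in DKO). Red blood cell and platelet genes summed to 0.729 to 16.0 CPM in DKO and 0.0424 to 12.5 CPM in WT libraries, with a median log2 fold change of 1.61 over the 4 tested, none of which passed the test. The B cell list, which holds Cd79b, a gene known to be expressed by microglia too, summed to 526 to 886 CPM in DKO and 418 to 677 CPM in WT libraries. The part of these cells in the results was not tested. Bhlhe40 was read at 0.177 ± 0.136 CPM in DKO and 0.601 ± 0.385 CPM in WT libraries (SD, n = 5 each), and Bhlhe41 RNA was not lower in DKO libraries (50.9 ± 8.46 against 35.9 ± 6.67 CPM, edgeR adjusted p = 0.0707). The deleted part of each gene is not stated in the labels, so these whole-gene values do not check the genotype.

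A Rab protein is a switch that recruits different partners when it holds GTP and when it holds GDP, and each Rab sits on its own set of membranes. Guanine nucleotide exchange factors load Rabs with GTP, GTPase activating proteins switch them off, and effectors such as tethers and motor adaptors bind the loaded form. In macrophages Rab5 and Rab7 mark successive stages of the endosome and phagosome, Rab11 and Rab14 return cargo to the surface, Rab1, Rab2 and Rab6 serve the endoplasmic reticulum and the Golgi, and Rab32 and Rab27 serve lysosome-related organelles and secretion.

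Bhlhe40 and Bhlhe41 are basic helix-loop-helix repressors known to bind the E-box CACGTG, so the starts of the Rab genes were searched for these letters. The motif reads the same on both strands. In RefSeq promoters of GRCm38.p6, which run from 250 bases before to 50 bases after a gene's start, 6 of 38 Rab genes with an entry (15.8%) held CACGTG, against 2187 of 27025 genes (8.09%). Among them were 3 of the 5 genes with an entry that passed the test below (Rab20, Rab24 and Rab5a, but neither Rab40c nor Rab43), and Rab2a had no entry. The 27025 genes were not filtered by level as the Rab genes were, and the share among all genes that passed was not counted. No enrichment is therefore read from these shares. The windows around these sites are shown because they compare the flanks of the motif between Rab genes that changed and Rab genes that did not, with the motif in capitals and up to 12 bases on each side.
Rab20: cggccgggcaccCACGTGgtcgcagggctg
Rab24: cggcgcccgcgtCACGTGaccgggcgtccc
Rab5a, far site: aattggagaagaCACGTGacgcaaccccac
Rab5a, near site: acccggggatgtCACGTGacttcggccccg
Rab21: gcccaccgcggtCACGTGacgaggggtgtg
Rab23: cttcagtgctacCACGTGagtctcaggtgg
Rab27a: cttgCACGTGctcctccgtctg
The Rab20 window (chr8:11478669-11478698, minus strand) has its motif 46 bases before the RefSeq start, which itself lies 70 bases inside the GENCODE transcript. The Rab24 motif (chr13:55321961-55321990, minus strand) begins 3 bases after the start. The Rab5a sites lie 235 bases (chr17:53478987-53479016) and 95 bases (chr17:53479127-53479156, both plus strand) before the start. Those of genes that did not pass the test lie 30 bases before the start in Rab21 (chr10:115315604-115315633, minus strand), 218 bases in Rab23 (chr1:33719666-33719695, plus strand) and 246 bases before an internal start of Rab27a (chr9:73063898-73063919, plus strand). The motif thus stood in Rab genes that were lower, higher and not past the test, and a match of letters does not show binding.

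To set the genes side by side, levels were taken as CPM per kilobase of effective length. Rab14, which acts between the Golgi and recycling endosomes, stood first at 274 in DKO and 305 in WT libraries, next to Rab11a, the Rab of the recycling endosome, at 261 in DKO and 270 in WT. Their ranges over libraries overlapped, 255 to 296 and 205 to 308 in DKO, so these neighbours did not differ beyond their spread. Rab7, the late endosome and lysosome Rab, followed at 177 in DKO and 156 in WT libraries, and the ranges of Rab11b, Rab1b and Rab1a ran into one another below it. Rab31, Rab32, Rab18 and Rab4b closed the first 10 places, each with means of 75.8 to 114 CPM per kilobase in either genotype. At the other end, Rab27b averaged 0.123 in DKO and 0.104 in WT libraries and Rab7b 0.286 and 0.257, so the secretory Rab27 of these cells was read almost wholly as Rab27a (10.4 in DKO and 11.3 in WT libraries).

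**Figure D1:**
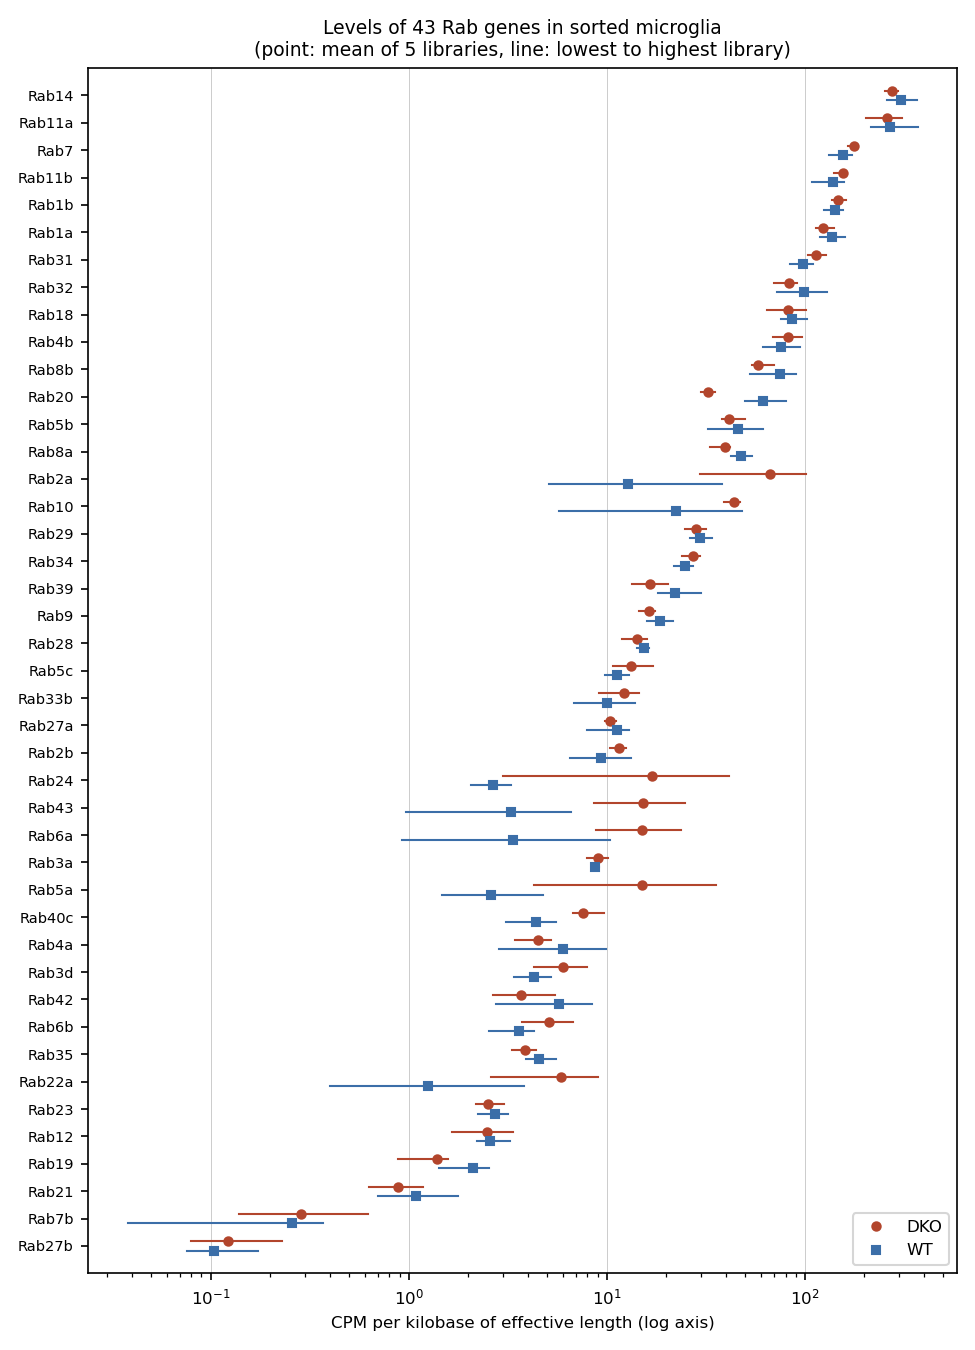
CPM per kilobase of effective length (log axis) of the 43 Rab genes, ordered by their mean over all libraries; points are means of 5 libraries and lines run from the lowest to the highest library, DKO in red above WT in blue. Most pairs of lines lie on top of each other, while Rab2a, Rab10, Rab43, Rab6a and Rab22a have long WT lines and Rab24 and Rab5a long DKO lines.

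Summed over the 43 genes, the Rab level was 3740 to 4067 CPM in DKO and 3531 to 3827 CPM in WT libraries, so the genotypes overlapped. The 10 most abundant Rab genes by CPM took 67.9% to 74.1% of this sum in DKO libraries and 73.0% to 79.4% in WT libraries. In bulk RNA of a sorted population, fewer cells with a transcript and less of it per cell cannot be told apart.

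All 43 Rab genes passed the count filter. In edgeR's quasi-likelihood test of DKO over WT, with Benjamini-Hochberg adjustment over all 13916 genes tested and a threshold of 0.05, 5 Rab genes were higher in DKO microglia (Rab24, Rab5a, Rab2a, Rab43 and Rab40c) and 1 was lower (Rab20). Of all genes tested, 6.19% passed in either direction, 4.34% as higher and 1.85% as lower, against 11.6% of the Rab genes as higher and 2.33% as lower. Of the calls over all genes 70.1% were higher in DKO; this share was 53.7% with library size as the only scaling, 54.6% with upper-quartile scaling and 13.0% on log2(TPM + 1). On that scale 6 Rab genes were higher and 15 lower, where 4.51% of all genes were higher and 30.1% lower. With the single gene Gm23935 taken out of the TPM total, 55.0% of calls were higher (4.25% of genes higher and 3.49% lower), and 5 Rab genes were higher and 1 lower. The median log2 fold change was 0.05 over the Rab genes and -0.01 over all genes. Rab20, Rab40c, Rab43 and Rab2b had genotypes that did not overlap, which makes 3 Rab genes with every DKO library above every WT library, where 4.33% of all genes did this, and 1 with every DKO library below, where 3.29% did.

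**Figure D2:**
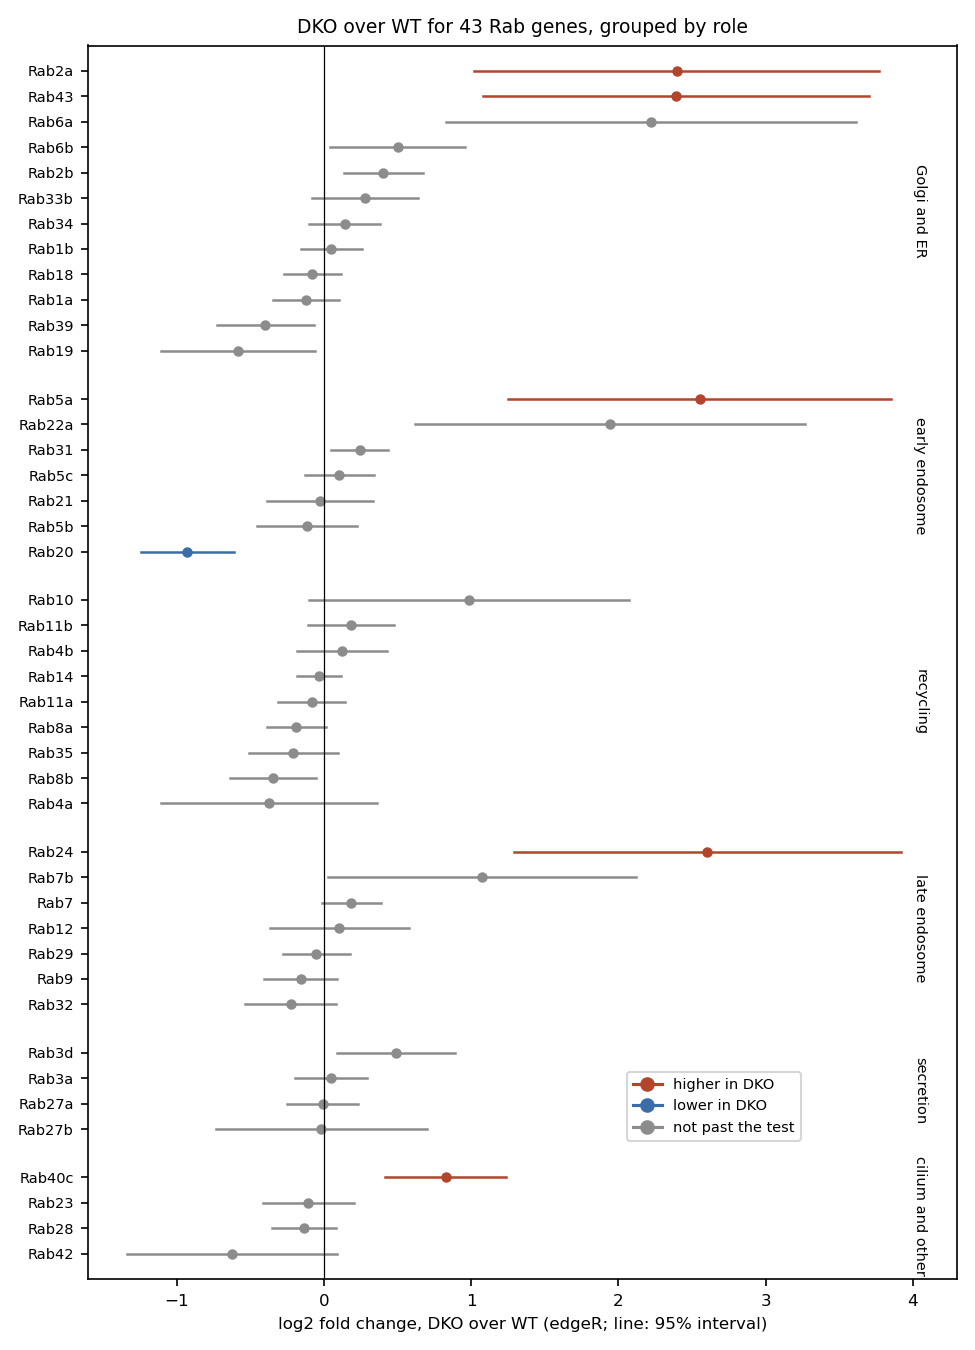
Log2 fold change, DKO over WT, of the 43 Rab genes with 95% intervals from the standard errors and the degrees of freedom of the test, grouped by role; red genes were higher in DKO, blue lower, and grey did not pass the test. Most intervals are narrow and cross or touch 0, while Rab2a, Rab43, Rab6a, Rab5a, Rab22a and Rab24 have wide intervals to the right of 0 and that of Rab10 reaches across it.

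Rab20, a Rab of the early endosome and of maturing phagosomes in macrophages, was the lower gene. It was read at 32.7, 31.4, 33.6, 35.6 and 37.7 CPM in DKO 1 to DKO 5, against 55.1, 51.9, 58.0, 73.3 and 86.8 CPM in WT 1 to WT 5. The highest DKO library thus lay below the lowest WT library, and the spread was wider in WT. The log2 fold change was -0.93 ± 0.14 (SE; fold 0.526, edgeR adjusted p = 0.00323). It passed whichever library was left out, with adjusted p of 0.00203 to 0.0140. Rab20 (chr8:11453518-11478710, minus strand, GRCm38 with GENCODE M21) shares 356 exon bases with E230013L22Rik, a noncoding gene on the opposite strand, which was itself read at 1.34 CPM in DKO and 2.91 CPM in WT libraries on average.

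Rab40c, whose protein carries a SOCS box and joins a cullin ubiquitin ligase, was higher in DKO microglia. Its levels were 14.99, 18.9, 12.1, 13.5 and 14.1 CPM in DKO 1 to DKO 5, against 5.66, 7.94, 10.7, 9.87 and 7.30 CPM in WT 1 to WT 5. Every DKO library was above every WT library, with WT 3 the nearest. The log2 fold change was 0.83 ± 0.19 (edgeR adjusted p = 0.0261), and leaving out DKO 1, DKO 2, DKO 5, WT 2 or WT 5 took the adjusted p to 0.0529 to 0.0716. In these fits the calls over all genes fell too, from 862 to between 402 and 536. Rab40c lies at chr17:25882114-25919727 (minus strand), and of its group of cilium-linked and less studied Rabs, Rab23, Rab28 and Rab42 did not pass the test (log2 fold changes -0.10, -0.13 and -0.62).

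The other 4 genes had larger differences and wide spreads. Rab2a, which acts between the endoplasmic reticulum, the Golgi and lysosomes, was read at 197, 233, 69.97, 65.7 and 189 CPM in DKO 1 to DKO 5. In WT 1 to WT 5 it was read at 11.4, 13.3, 86.6, 16.9 and 15.1 CPM. Thus 4 WT libraries were below every DKO library, while WT 3 was above DKO 3 and DKO 4. The log2 fold change was 2.40 ± 0.63 (edgeR adjusted p = 0.0452). Leaving out DKO 1, DKO 2, DKO 5, WT 1, WT 2, WT 4 or WT 5 took the adjusted p to 0.0917 to 0.109. Leaving out WT 3, the WT library nearest to DKO here, gave 0.000314, and the calls over all genes then rose from 862 to 1618.

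Rab43, a Golgi Rab, again had its highest WT value in WT 3. It was read at 70.7, 84.8, 27.6, 27.0 and 47.1 CPM in DKO 1 to DKO 5, against 8.04, 10.1, 23.8, 5.51 and 1.47 CPM in WT 1 to WT 5. The genotypes did not overlap, but WT 3 came close to DKO 3 and DKO 4, and the WT libraries differed among themselves by 16.2-fold. The log2 fold change was 2.39 ± 0.60 (edgeR adjusted p = 0.0381), and it missed the threshold without DKO 1, DKO 2, DKO 5, WT 1, WT 2 or WT 4 (0.0690 to 0.0954). Rab43 (chr6:87788853-87812164, minus strand) shares 4164 exon bases with Gm45140, a protein-coding gene on the same strand, so the estimate had to divide reads between them. Gm45140 was read at 0 to 7.64 CPM in DKO and 4.24 to 11.5 CPM in WT libraries, and the sum of both genes was 27.0 to 87.9 CPM in DKO and 13.0 to 29.3 CPM in WT libraries, which overlap through WT 3.

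Rab5a, the Rab that drives fusion of early endosomes, was read at 44.8, 98.4, 11.5, 11.8 and 37.5 CPM in DKO 1 to DKO 5. In WT 1 to WT 5 it was read at 4.504, 6.24, 12.8, 7.61 and 3.65 CPM. WT 3 again overlapped with DKO 3 and DKO 4, and the difference rested on DKO 1, DKO 2 and DKO 5. The log2 fold change was 2.55 ± 0.59 (edgeR adjusted p = 0.0287), and leaving out DKO 1, DKO 2, DKO 5, WT 1, WT 2, WT 4 or WT 5 gave 0.0545 to 0.0710. Rab5a lies at chr17:53479234-53507680 (plus strand), shares 221 exon bases with Pp2d1 on the opposite strand (0.0854 CPM in DKO and 0.225 CPM in WT libraries), and has a processed pseudogene, Rab5a-ps, that was read at 0 in every library.

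Rab24, which takes part in the clearance of autophagosomes, was read at 15.1, 30.9, 3.22, 2.61 and 11.8 CPM in DKO 1 to DKO 5. In WT 1 to WT 5 it was read at 2.09, 1.78, 1.54, 2.34 and 2.67 CPM. Here the WT libraries lay close together, WT 3 was the lowest of them, and DKO 3 and DKO 4 stood at or near the WT level. The log2 fold change was 2.604 ± 0.60 (edgeR adjusted p = 0.0278), and it missed the threshold without DKO 1, DKO 2, DKO 5, WT 1, WT 2, WT 4 or WT 5 (0.0526 to 0.0663). Rab24 (chr13:55319743-55321946, minus strand) shares 1258 exon bases with Prelid1 on the opposite strand, and the library kit does not mark strand, so reads of the shared bases cannot be assigned to either gene by strand. The GENCODE transcript of Rab24 nearest to the deposited length has 1168 bases, so the overlap is about as long as the transcript. Prelid1 was read at 84.1 to 121 CPM in DKO and 67.8 to 104 CPM in WT libraries, far more than Rab24. The sum of both genes was 87.3 to 141 CPM in DKO and 69.9 to 107 CPM in WT libraries, which overlap.

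**Figure D3:**
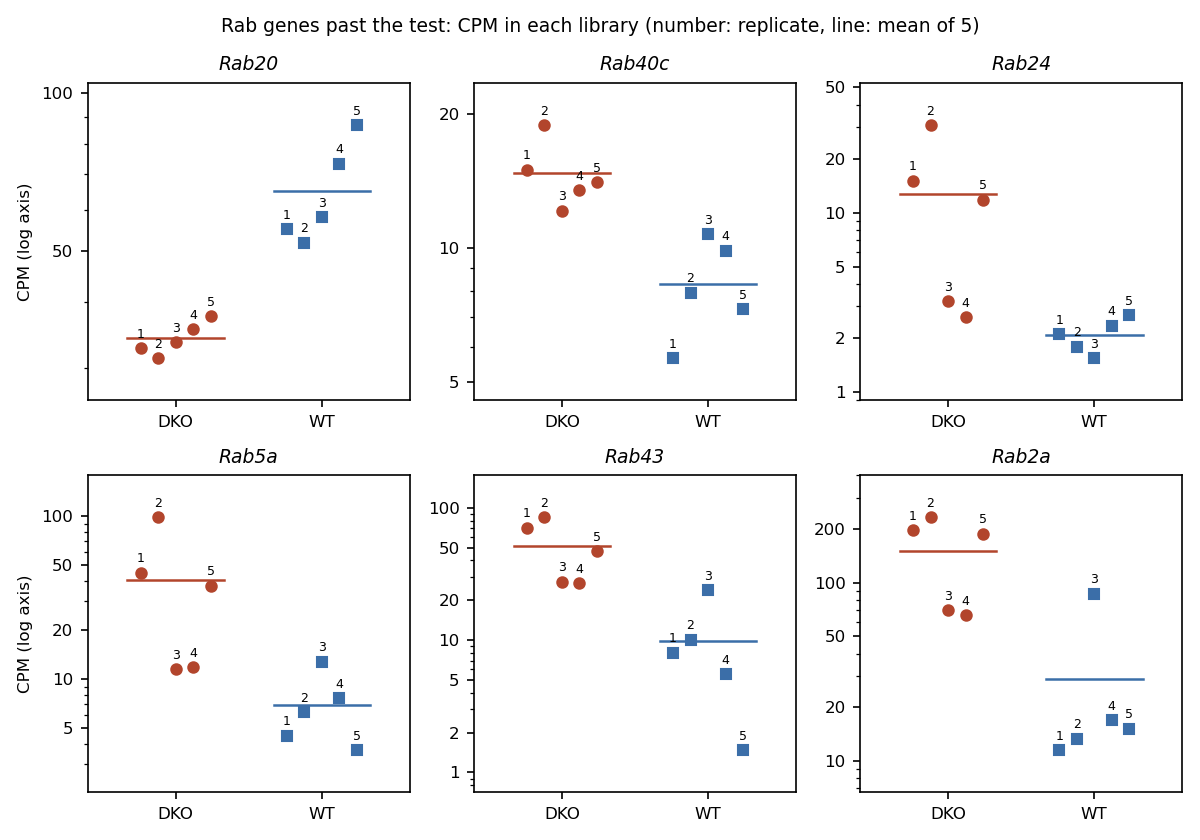
CPM (log axes) in each library for the 6 Rab genes that passed the test, DKO in red to the left and WT in blue to the right, with the replicate number beside each point and a line at the mean of 5. Rab20 is parted cleanly and Rab40c less widely; in Rab5a, Rab43 and Rab2a WT 3 stands above the other WT libraries and near DKO 3 and DKO 4, and in Rab24 DKO 1, DKO 2 and DKO 5 stand far above WT.

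Of the Rab genes with a wide WT spread and WT 3 as the highest WT library, 3 (Rab6a, Rab22a and Rab10) did not pass the test. Rab6a, which serves return traffic to the Golgi, was read at 54.9, 76.2, 27.6, 27.3 and 53.1 CPM in DKO 1 to DKO 5, against 2.92, 5.09, 32.6, 6.29 and 4.29 CPM in WT 1 to WT 5 (log2 fold change 2.22 ± 0.63, edgeR adjusted p = 0.0623). Rab22a, an early endosome Rab, was read at 43.4, 49.7, 19.3, 18.3 and 37.8 CPM in DKO 1 to DKO 5, against 4.43, 4.80, 27.1, 4.81 and 2.67 CPM in WT 1 to WT 5 (1.94 ± 0.60, 0.0825). Both passed with DESeq2 (adjusted p = 0.0160 and 0.0343) and with a term that sets replicate numbers 1 to 3 apart from 4 to 5 (edgeR adjusted p = 0.0445 and 0.0465). In both, WT 3 was the only WT library that reached the DKO range, and without it the edgeR adjusted p was 0.000172 for Rab6a and 0.000259 for Rab22a. WT 3 was singled out by such values, so these p-values are no support for a change. Without WT 3 the calls over all genes rose too, from 862 to 1618. Rab6a shares 708 exon bases with Mrpl48 on the opposite strand, which averaged 41.7 CPM in DKO and 44.2 CPM in WT libraries. Rab10, which delivers vesicles to the plasma membrane, was read at 169, 174, 169.8, 139 and 152 CPM in DKO 1 to DKO 5 and at 24.7, 112, 176, 72.6 and 19.5 CPM in WT 1 to WT 5. Its DKO libraries lay close together, while its WT libraries ran over a 9.01-fold range up to WT 3, the highest of all 10, and the log2 fold change of 0.99 ± 0.50 did not pass (edgeR adjusted p = 0.255).

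The first principal component of log2 CPM over all tested genes ordered the libraries in a like way, with WT 3 next to DKO 3 and DKO 4. DKO 2 (-54.4) and DKO 1 (-49.4) lay at one end with DKO 5 (-35.2), DKO 4 (-24.1) and DKO 3 (-21.1) after them. Then came WT 3 (-13.5), WT 2 (20.1), WT 4 (30.7), WT 1 (70.1) and WT 5 (76.8). On the second component WT 3 (-25.6) lay apart from DKO 3 (25.7), with DKO 4 at -10.6 and WT 2 at -21.1. Of the 36 Rab genes with a mean of at least 5 CPM, 5 (Rab2a, Rab6a, Rab10, Rab22a and Rab43) differed by at least 4-fold among the WT libraries, or 13.9%, where 6.62% of 8581 genes of that level did. The highest WT library was WT 3 in all 5, and the lowest DKO libraries were DKO 3 and DKO 4 in 4 of them, all but Rab10. This order was common in the series, since 219 of the 568 genes with such a spread (38.6%) had WT 3 highest and DKO 3 and DKO 4 lowest. The narrowest was Rab3a, with a WT ratio of 1.06, and 30 of the 36 Rab genes had a WT ratio under 2.

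Base composition moved with this spread. Among all genes of at least 5 CPM, 19.5% of those with a GC content of 70% or more in the first 200 bases of the transcript differed by at least 4-fold among the WT libraries, against 3.28% of those with less. The median log2 fold change was 0.27 in the GC-rich class and -0.05 in the other. Among the Rab genes 4 of 15 in the GC-rich class had such a spread, namely Rab2a (75.5% GC), Rab6a and Rab22a (75.0% each) and Rab10 (70.5%), and 1 of 21 in the other class, Rab43 (53.0%). Rab5a had 64.5% and Rab24 74.0%. A high GC content did not always go with a wide spread, since Rab31 (74.5%), Rab14 (74.0%) and Rab6b (80.5%) had WT ratios of 1.27, 1.08 and 1.73. After a loess correction of each library for this GC content, chosen after seeing the data, 6 Rab genes were higher and 4 lower in edgeR's test, where 4.94% of 11476 genes were higher and 6% lower, so that 45.2% of all calls were then higher, against 70.1% without the correction. Rab20 (adjusted p = 0.00278), Rab40c, Rab5a, Rab43 and Rab2a (0.0207 to 0.0359) still passed, Rab24 did not (0.0663), and Rab6a (0.0307) and Rab22a (0.0486) then did. The part of base composition in these differences was not otherwise tested.

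**Figure D4:**
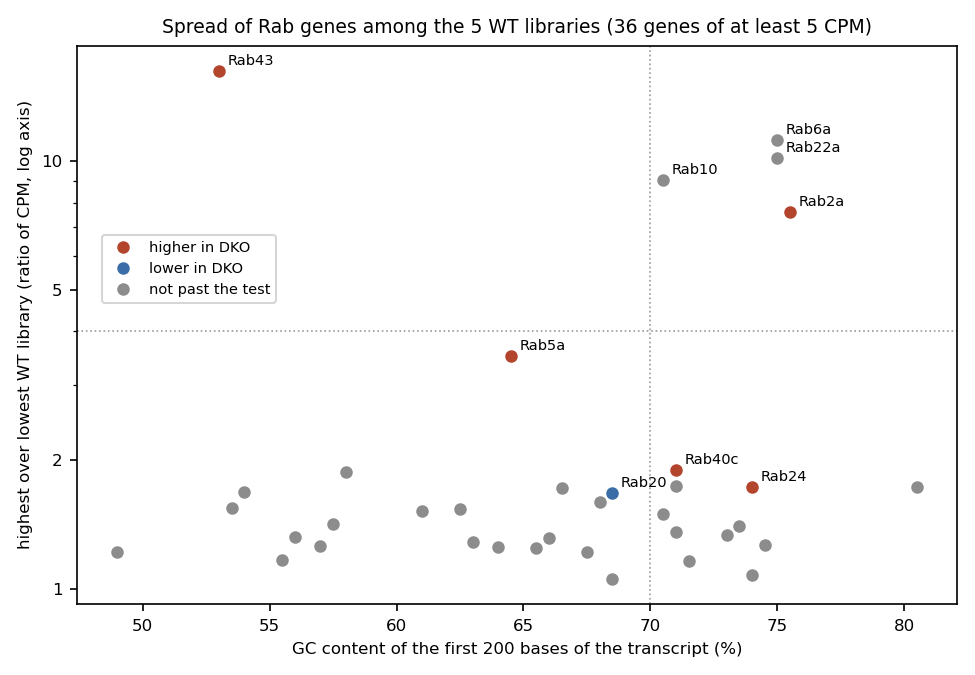
Ratio of the highest to the lowest WT library (log axis) against the GC content of the first 200 transcript bases for the 36 Rab genes of at least 5 CPM, coloured by the result of the test, with dotted lines at a ratio of 4 and at 70% GC. Rab6a, Rab22a, Rab10 and Rab2a lie in the upper right and Rab43 alone in the upper left, while most genes lie under a ratio of 2 at every GC content.

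Close relatives of the genes with a wide spread had narrower ranges. Rab2b was read at 38.6, 36.05, 33.03, 32.5 and 32.5 CPM in DKO 1 to DKO 5, against 27.0, 30.5, 28.4, 24.9 and 19.7 CPM in WT 1 to WT 5. Its genotypes did not overlap, but the difference was small, did not pass the test (log2 fold change 0.40 ± 0.12, edgeR adjusted p = 0.0776) and was -0.01 on log2(TPM + 1). It passed with DESeq2 (adjusted p = 0.0380) and with the term for replicate numbers (edgeR adjusted p = 0.0256). On the opposite strand Rab2b shares 195 exon bases with Tox4 (179 CPM in DKO and 164 CPM in WT libraries). It also shares 2469 with Gm43766 (0.729 and 0.548 CPM). Per kilobase, Rab2a made up 74.1% to 89.7% of the Rab2 transcripts in DKO libraries and 35.6% to 74.3% in WT libraries, where WT 3 had the 74.3% and no other WT library more than 52.5%. The Rab2 sum was 40.0 to 113 CPM per kilobase in DKO and 13.7 to 51.7 in WT libraries, overlapping through WT 3.

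For the Rab5 genes the sum moved little, because Rab5b was the main form. Rab5b averaged 119 CPM in DKO and 129 CPM in WT libraries (log2 fold change -0.12 ± 0.15, edgeR adjusted p = 0.687), and Rab5c 16.99 and 15.8 CPM (0.11 ± 0.11, 0.579). The summed Rab5 level was 54.0 to 91.1 CPM per kilobase in DKO and 46.2 to 74.5 in WT libraries, which overlap, and the share of Rab5a was 6.06% to 39.3% in DKO and 1.99% to 8.03% in WT libraries. Rab6a made up 65.8% to 80.7% of the Rab6 sum in DKO libraries and 26.6% to 37.0% in WT libraries other than WT 3, which had 72.1%. Rab6b averaged 24.5 CPM in DKO and 17.3 CPM in WT libraries and did not pass the test (0.50 ± 0.21, edgeR adjusted p = 0.178).

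Rab31, the nearest relative of Rab22a and far more abundant, averaged 364 CPM in DKO and 308 CPM in WT libraries without passing the test (log2 fold change 0.24 ± 0.09, edgeR adjusted p = 0.124). Rab22a was 2.16% to 7.56% of their sum in DKO libraries and 0.366% to 3.86% in WT libraries. Beside Rab10, Rab8a and Rab8b averaged 109 and 320 CPM in DKO and 124 and 407 CPM in WT libraries (log2 fold changes -0.19 and -0.35, edgeR adjusted p = 0.244 and 0.147). Rab10 made up 28.8% to 34.3% of these 3 genes per kilobase in DKO libraries and 4.02% to 29.0% in WT libraries, again with WT 3 at the top. Whether the response of a gene differed from that of its relative was not tested.

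**Figure D5:**
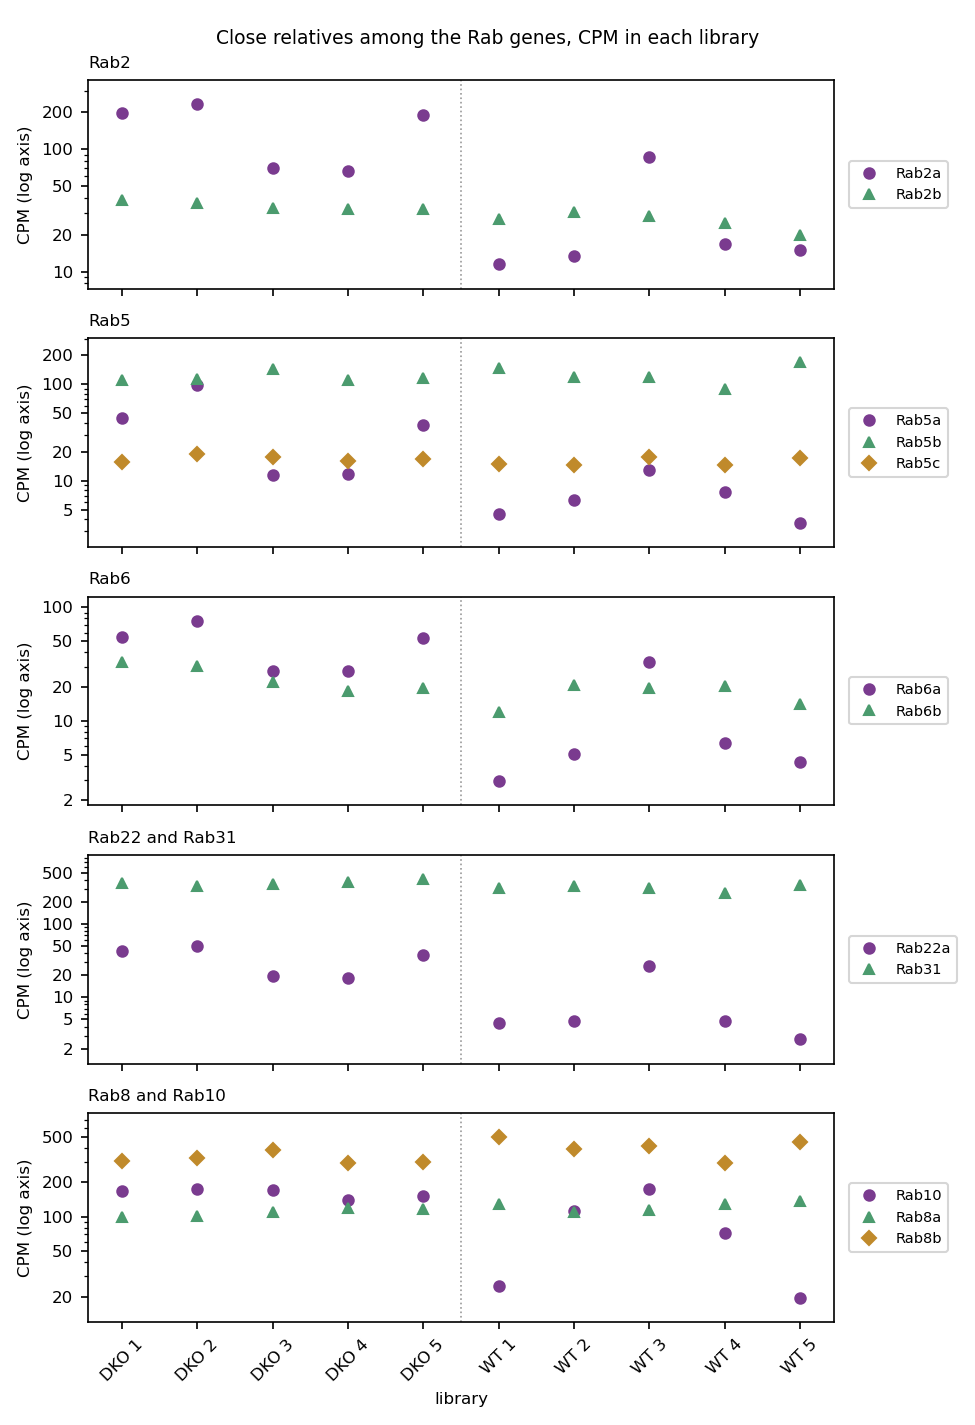
CPM (log axes) in each library, DKO 1 to DKO 5 left of the dotted line and WT 1 to WT 5 right of it, for Rab2a, Rab5a, Rab6a, Rab22a and Rab10 (purple circles) and their close relatives (green triangles and ochre diamonds). The purple points drop in most WT libraries but not in WT 3, and the relatives vary less, with Rab6b lowest in WT 1 and Rab2b in WT 5.

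None of the remaining Rab genes passed the test, though some had 95% intervals that excluded 0, in either direction. Among these were Rab19 (log2 fold change -0.59 ± 0.24, edgeR adjusted p = 0.169), Rab39 (-0.40 ± 0.15, 0.140) and Rab3d (0.49 ± 0.18, 0.135). By role, 2 of 12 Golgi and endoplasmic reticulum Rabs were higher (Rab2a and Rab43), and 1 of 7 early endosome Rabs was higher and 1 lower (Rab5a and Rab20). Of the late endosome, lysosome and autophagosome Rabs 1 of 7 was higher (Rab24), and of the cilium-linked and less studied Rabs 1 of 4 (Rab40c). None of 9 recycling Rabs or 4 secretory Rabs passed in either direction. At the adjusted threshold of 0.05 used for these counts, 4.34% of all genes tested were higher and 1.85% lower. At an unadjusted edgeR p under 0.05, 16 of the 43 Rab genes (37.2%, Rab7b among them) passed, against 23.3% of all genes tested. The role medians of the log2 fold change ran from -0.12 to 0.21. Of the 37 genes that did not pass, 23 had a 95% interval within 1.5-fold in both directions.

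Among the abundant genes with such tight intervals were Rab14 (log2 fold change -0.03 ± 0.07, edgeR adjusted p = 0.812), Rab11a (-0.08 ± 0.10, 0.670), Rab1a, which brings cargo from the endoplasmic reticulum to the Golgi (-0.12 ± 0.10, 0.499), and its near copy Rab1b (0.05 ± 0.09, 0.776). Rab7 averaged 297 CPM in DKO and 261 CPM in WT libraries (0.19 ± 0.09, edgeR adjusted p = 0.237), and Rab18, a Rab of lipid droplets and the endoplasmic reticulum, 162 and 171 CPM (-0.08 ± 0.09, 0.627). Rab32, which serves lysosome-related organelles in macrophages, averaged 190 CPM in DKO and 222 CPM in WT libraries (-0.23 ± 0.14, edgeR adjusted p = 0.362). Rab27a, which docks secretory lysosomes at the plasma membrane, was at 29.2 and 29.4 CPM (-0.01 ± 0.11, 0.973), and Rab3a at 8.31 and 8.03 CPM (0.05 ± 0.11, 0.821). Intervals were wide for Rab7b (log2 fold change 1.08 ± 0.48, edgeR adjusted p = 0.203), Rab4a (-0.37 ± 0.34, 0.537) and Rab27b (-0.02 ± 0.33, 0.982), which had means of 10.4, 118 and 15.3 reads. Rab7b passed the read limit only through its DKO libraries, so its difference is no support for a change. Of 12 members known from cell lines as substrates of the kinase Lrrk2, 2 were higher (Rab5a and Rab43). Of all the Rab genes 11.6% were higher, and of all genes tested 4.34%. Whether these substrates differed from the other Rab genes was not tested.

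The mean transcript length that the files give for each gene, weighted by isoform abundance, served to look for a change of isoforms. None of the 43 Rab genes had lengths that did not overlap between genotypes with means at least 5% apart, where 0.704% of all genes tested did (by the exact permutation test of 5 against 5 libraries, no Rab gene had p under 0.05). For 10 Rab genes, among them Rab20, Rab2a and Rab10, all reads were assigned to isoforms of a single length. Rab43 came nearest among the genes with a changed level, with 4114 ± 169 bases in DKO and 3361 ± 872 bases in WT libraries (SD, n = 5 each, two-sided exact permutation test p = 0.0873). Without WT 3, 1 Rab gene met the rule.

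Of 152 tested genes that load, unload, carry or read Rab proteins, or are Rab-like, 7 were higher and 1 lower in DKO microglia, against 4.34% and 1.85% of all genes, and their median log2 fold change was 0.05. The clearest were effectors. Eea1, the tether that binds Rab5 on early endosomes, was read at 10.04, 8.03, 7.46, 6.11 and 5.74 CPM in DKO 1 to DKO 5, against 2.85, 3.18, 4.23, 3.00 and 2.48 CPM in WT 1 to WT 5 (log2 fold change 1.25 ± 0.20, edgeR adjusted p = 0.00408). Rab11fip5, a Rab11 effector of recycling endosomes, was read at 101, 98.5, 106, 79.7 and 78.6 CPM in DKO 1 to DKO 5, against 19.5, 41.6, 49.5, 29.2 and 14.03 CPM in WT 1 to WT 5 (1.59 ± 0.30, 0.0104). In both genes every DKO library was above every WT library, WT 3 was the highest WT library, and the call held whichever library was left out. After the GC correction Eea1 did not pass (0.51, adjusted p = 0.0844), and Rab11fip5 did (0.00344).

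The other calls among these genes were weaker. Wdr41, a partner of C9orf72 and Smcr8 that was listed with the exchange factors, averaged 58.8 ± 13.1 CPM in DKO and 25.6 ± 12.2 CPM in WT libraries (log2 fold change 1.199 ± 0.28, edgeR adjusted p = 0.0278). Its value in WT 3 was 47.0 CPM. Chml, a Rab escort protein, averaged 8.03 ± 3.07 and 3.47 ± 1.63 CPM (1.21 ± 0.32, 0.0459), and Ppm1h, a phosphatase that removes Lrrk2-dependent phosphate from Rabs, 35.2 ± 4.04 and 26.4 ± 2.47 CPM (0.41 ± 0.11, 0.0472). The effectors Optn, an autophagy receptor that binds Rab8, and Mical1, an actin-oxidising enzyme, had log2 fold changes of 1.27 ± 0.33 (edgeR adjusted p = 0.0420) and 0.65 ± 0.17 (0.0468). With the effective length as an offset the change of Optn was 0.04 and did not pass, on log2(TPM + 1) it was -0.10, and after the GC correction that of Ppm1h was -0.36 and did not pass. Wdr41 (0.50, edgeR adjusted p = 0.129) and Chml (0.58, 0.0942) did not pass after that correction either. Tbc1d10c, a GTPase activating protein, was the lower gene, at 1.08 ± 0.50 CPM in DKO and 2.76 ± 0.59 CPM in WT libraries (-1.34 ± 0.30, edgeR adjusted p = 0.0241). All 6 of these lost the call when DKO 1, DKO 2, DKO 5 or WT 5 was left out. Without WT 4, Tbc1d10c, Wdr41, Optn, Chml and Mical1 lost it, without WT 2 Wdr41, Optn, Chml, Mical1 and Ppm1h, without WT 1 Wdr41, Chml, Mical1 and Ppm1h, without DKO 3 Chml, Mical1 and Ppm1h, and without DKO 4 Optn. The adjusted p then ran from 0.0516 to 0.122.

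By list, 1 of 53 genes listed as exchange factors (Wdr41), 4 of 46 effectors, 1 of 7 escort and prenylation genes and 1 of 2 kinases and phosphatases were higher. In the others, 1 of 38 GTPase activating proteins was lower, and none of 6 Rab-like genes passed. Of all genes tested 4.34% were higher and 1.85% lower, and most of these lists are short. Rabl6, the Rab-like gene with the highest mean over both genotypes, averaged 19.5 CPM in DKO and 8.89 CPM in WT libraries (log2 fold change 1.13 ± 0.34, edgeR adjusted p = 0.0701).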

How the data were processed

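Microglia were sorted from female mice and sequenced with the TruSeq RNA v2 kit, which does not mark strand. Per the submitters' processing notes the authors used cutadapt 2.6, FastQC 0.11.8, STAR 2.5.3a and mm10; the counting program was not given in the sources used here. Estimated counts per gene, as deposited, were rounded to whole numbers and tested in edgeR 4.0.16 (R 4.3.3; TMM, filterByExpr with a minimum count of 10, quasi-likelihood test, Benjamini-Hochberg over 13916 genes, threshold 0.05). The deposited TPM values entered alternatives only, in limma 3.58.1 with pseudocounts of 1 or 0.1, and the deposited transcript lengths and effective lengths gave isoform lengths and levels per kilobase. DESeq2 1.42.0 was a further alternative. Scripts were tested on simulated data. GC content came from GENCODE M21 transcripts nearest in length to the deposited length (82.5% of tested genes, all 43 Rab genes).

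Samples were grouped by the genotype in their labels. Members and gene lists were chosen with earlier results of these data known. Genes were named if they were called, if their genotypes did not overlap, if they were the 2 highest per role or stood beside the read limit, or, among regulators, up to 4 called genes per list by p, or the most abundant where none was called. The relatives and the other members named were chosen after their values were seen.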

Additional observations from a re-analysis of the deposited data

Results flagged for a closer look

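Among the 58 groups of 5 libraries tested for a value standing apart (29 genes, each in DKO and in WT), 5 had a highest value far from the rest by Dixon's criterion, and all 5 were WT 3. Chance alone marks about 1 in 20 groups of values chosen blindly. That rate does not hold here, since the genes share libraries and Rab6a, Rab22a and Rab10 were chosen after their values were seen. Rab2a was at 86.6 CPM in WT 3, against 11.4 to 16.9 CPM in the other WT libraries. Rab6a was at 32.6 CPM in WT 3 and 2.92 to 6.29 CPM in the others, and Rab22a at 27.1 CPM and 2.67 to 4.81 CPM. The escort gene Chml was at 6.32 CPM in WT 3 and 2.38 to 3.27 CPM in the others, and Wdr41 at 47.0 CPM and 16.7 to 23.3 CPM. The cause was not tested.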

How the results depend on the processing

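Rab20 was lower in all 10 fits without 1 library and in all 16 other alternatives. The number of Rab genes higher in DKO (5) became 8 with DESeq2, 2 with robust edgeR, 9 with a term for replicate sets (numbers 1 to 3 against 4 to 5; Rab2b, Rab6a and Rab22a passed there and with DESeq2), and 0 without WT 1 and WT 5 together. It ran from 0 to 7 when 1 library was left out. Calls over all genes (862) became 1629 with DESeq2, 759 with robust edgeR and 1431 with the term for replicate sets. They were 449 without WT 1 and WT 5 together, and 402 to 1618 without 1 library. The number lower (1) became 4 with the GC loess correction and 15 on log2(TPM + 0.1) and log2(TPM + 1), and ran from 1 to 2 when 1 library was left out. The median over all genes was -0.01, -0.35 on log2(TPM + 0.1), -0.26 on log2(TPM + 1), -0.11 with upper-quartile scaling and -0.10 after the loess correction, so lower calls on TPM are read against that shift.

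Regulators and effectors higher in DKO (7) became 12 with DESeq2, 3 with library size only, 3 with loess, 4 with upper-quartile scaling, 3 without WT 1 and WT 5, and 2 to 15 without 1 library. Those lower (1) became 5 with DESeq2, 4 with library size only, 2 with limma voom, 9 with loess, 42 on log2(TPM + 0.1), 44 on log2(TPM + 1), 2 on TPM without Gm23935, 3 with the set term, 3 with upper-quartile scaling, 0 without WT 1 and WT 5, and 0 to 3 without 1 library. Length calls were 0 to 1 without 1 library. Rab2b turned to -0.0108 on log2(TPM + 0.1) and -0.0120 on log2(TPM + 1), Optn to -0.0019 and -0.0972, and Ppm1h to -0.357 with loess. The cause was not tested.

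With the replicate number as a replicate block, 0 Rab genes were higher and 1 lower (Rab20, adjusted p = 0.00637), and 2 regulators were higher and 1 lower; all genes gave 547 calls, against 862 without the block, 1629 with DESeq2 and 1618 without WT 3. Same-numbered libraries correlated only at -0.235 to 0.199 in their deviations. By this measure DKO 1 and DKO 2 correlated best with WT 3, and DKO 3 with WT 1. DKO 4 and DKO 5 correlated best with WT 4. What the replicate numbers share was not tested further. Rab7b and Rab27b had few reads.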
